A study of Rattus norvegicus with 6 samples.

Results

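Cholesterol leaves cells and travels on lipoproteins through a small set of proteins whose genes are, in large part, switched on by the liver X receptors. The 10 genes described here were taken from that set by name: the exporters Abca1 and Abcg1, the apolipoprotein genes Apoe and Apoc1, the receptor gene Scarb1, the receptor regulator Mylip, the lipoprotein remodelling genes Pltp and Lpl, the phospholipid enzyme gene Lpcat3 and the oxysterol enzyme gene Cyp27a1. They were measured by 14 of the 61537 non-control probes of a rat expression array, and all 10 genes and all 14 probes passed the filter on dim probes, as did 43099 probes in all, which stand for 31637 genes or unnamed transcripts. The rule that selects them uses no measured value.

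Renal cortex was taken from 6 male Sprague-Dawley (Crl:CD(SD)) rats that were 5 weeks old when purchased. The control group of 3 was given corn oil. The other 3 were given tricresyl phosphate, an organophosphate that goes into plastics, hydraulic fluids and flame retardants, at 200 mg/kg/day. Both groups were dosed over 4 weeks. Each animal gave 1 array with 1 dye, so the replicates are separate animals. The comparison asks which transcripts of the cortex differ after tricresyl phosphate.

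Liver X receptors are nuclear receptors that bind oxysterols, which accumulate when a cell holds too much cholesterol. With their partner, the retinoid X receptor, they bind paired hexamer repeats in DNA and raise the genes that carry cholesterol out of the cell. Abca1 loads cholesterol and phospholipid onto lipid-poor apolipoprotein A-I, and Abcg1 passes cholesterol on to formed high-density lipoprotein. In the kidney, proximal tubule cells also take up filtered apolipoproteins through megalin and cubilin, so cortex holds both arms of lipoprotein handling.

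Promoter sequence, 250 bases before to 50 bases after the annotated start, was found in the RefSeq promoter table of build GRCr8 for 7 of the 10 genes, as 10 windows. It was searched for the liver X receptor element, a direct repeat of hexamers spaced by 4 bases, written NGGTNANNNNNGGTNA, on both strands. The motif occurred in 0.675% of all 33469 promoter windows of this length and in 1 of the 10 member windows, that of Abca1. There it lay on the opposite strand at bases -70 to -55 from the start. Abca1 is shown because its promoter element is the textbook binding site of these receptors, and Cyp27a1 and Pltp because they had the lowest unadjusted p-values among the member genes when each gene stands by its probe with the highest mean. Capitals mark the motif. The windows are chr5:72596424-72596723 (minus strand) for Abca1, chr9:83713282-83713581 (plus strand) for Cyp27a1 and chr3:174011933-174012232 (minus strand) for Pltp.
Abca1: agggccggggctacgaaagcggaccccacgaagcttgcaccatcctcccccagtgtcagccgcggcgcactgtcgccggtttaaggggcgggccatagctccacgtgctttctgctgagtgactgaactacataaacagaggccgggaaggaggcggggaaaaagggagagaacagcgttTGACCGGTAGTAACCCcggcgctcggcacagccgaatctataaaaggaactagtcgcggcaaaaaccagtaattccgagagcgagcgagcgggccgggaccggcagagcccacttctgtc
Cyp27a1: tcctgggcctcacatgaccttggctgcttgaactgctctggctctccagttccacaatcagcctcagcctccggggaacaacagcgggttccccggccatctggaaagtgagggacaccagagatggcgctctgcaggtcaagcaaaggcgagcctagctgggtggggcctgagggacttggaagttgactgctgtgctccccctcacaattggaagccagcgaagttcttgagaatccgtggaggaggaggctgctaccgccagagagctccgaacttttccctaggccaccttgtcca
Pltp: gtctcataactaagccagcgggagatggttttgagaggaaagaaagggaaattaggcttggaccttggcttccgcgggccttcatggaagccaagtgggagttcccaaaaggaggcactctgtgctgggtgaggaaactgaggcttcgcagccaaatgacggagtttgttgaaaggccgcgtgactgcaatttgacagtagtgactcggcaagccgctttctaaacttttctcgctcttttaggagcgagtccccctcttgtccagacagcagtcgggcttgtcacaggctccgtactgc
The letters of the motif were not found in the Cyp27a1 and Pltp windows. A match describes the letters only.

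Levels below are processed signals on the log2 scale, with the 75th percentile of each array set to 0, and a level is compared only with the same probe in other animals. Array medians of the processed signal spanned 102.6 to 133.2, and those of the local background 33.0 to 41.0. The 6 arrays had 41503 to 43823 probes well above background, and the correlation between arrays over the kept probes lay between 0.987 and 0.991. Slide 1, scan 1, held corn oil replicate 1 and no other array, and slide 2, scan 2, held the other 5. All 10 proximal tubule markers and all 6 podocyte markers were well above background on every array. With tricresyl phosphate 9 of the 10 proximal tubule markers were lower and 1 higher, with a median difference of -0.12. In 2 of them all treated animals lay below all corn oil animals, as was so in 7.88% of all genes. Their summed level was 2510, 2201 and 2127 in treated replicates 1, 2 and 3 and 2450 to 2496 with corn oil. Podocyte markers gave 3 higher and 3 lower. Their part in the differences below was not tested.

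None of the 10 genes was called different between the groups. At an adjusted limma p under 0.05, 0 of the 14 member probes were called, and the share called over all kept probes was 0%. At an unadjusted limma p under 0.05, 0 of the 14 were called, where the share over all kept probes was 5.4%, made up of 2.03% higher and 3.37% lower with tricresyl phosphate. In no member probe did the 3 animals of a group lie wholly above or below the other 3, a pattern seen in 11.7% of all kept probes, 4.7% higher and 7.02% lower. By gene, 5 members were higher and 5 lower with tricresyl phosphate, and the direction of Lpcat3, and under quantile normalization that of Apoe, turned with the scaling. The median difference of the 10 genes was 0.010 on the log2 scale, against -0.038 over all genes, and their median absolute difference was 0.14 against 0.12. Intervals below are 95% intervals from the limma fit.

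**Figure D1:**
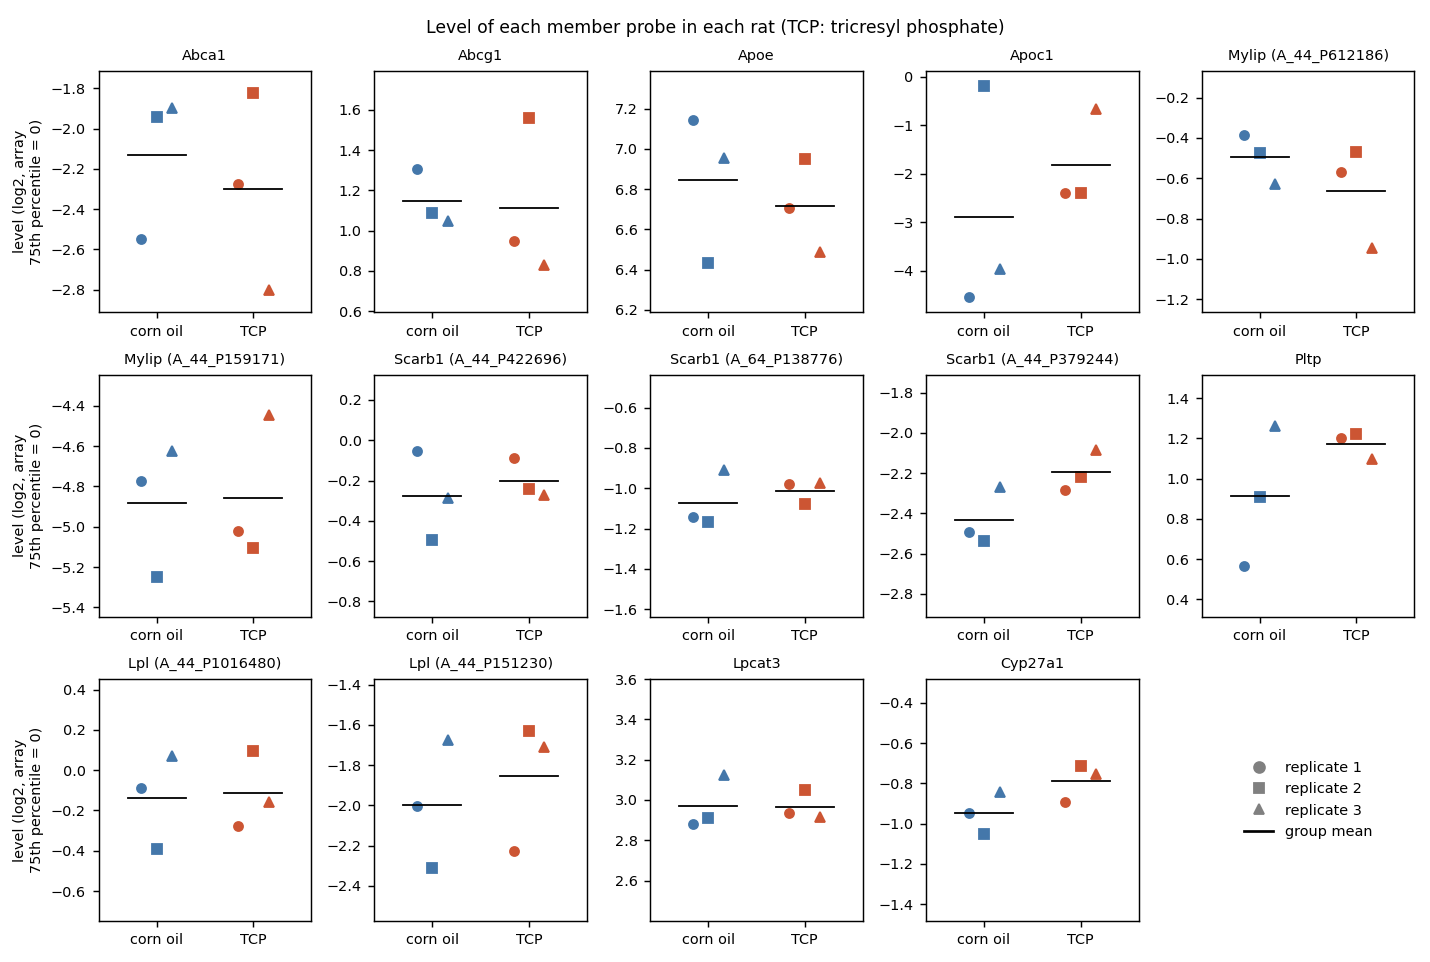
Level of each of the 14 member probes (log2, 75th percentile of the array at 0) in each of the 6 rats, with circles, squares and triangles for replicates 1, 2 and 3 and a line for the group mean; panel axes cover different ranges. The groups overlap in every panel, and Apoc1 spreads over 4.34 log2 units while the other probes spread over less than 1 unit within a group.

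Abca1, the exporter that starts the formation of high-density lipoprotein, was at -2.55, -1.94 and -1.90 in corn oil replicates 1, 2 and 3. With tricresyl phosphate it was at -2.28, -1.83 and -2.80. The highest and the lowest of the 6 animals were both in the tricresyl phosphate group, so the groups overlapped throughout. Corn oil animals averaged -2.13 ± 0.36 (SD, n = 3) and treated animals -2.30 ± 0.49 (SD, n = 3). They differed by -0.17 ± 0.29 (SE), with an interval from -0.88 to 0.54 and an adjusted limma p of 0.916.

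Abcg1, the exporter to formed high-density lipoprotein, was at 1.30, 1.09 and 1.05 with corn oil. Its tricresyl phosphate values were 0.95, 1.56 and 0.83, so here too replicates 2 and 3 of the treated group were the highest and the lowest of all animals. The difference was -0.033 ± 0.21 (SE), with an interval from -0.54 to 0.47 and an adjusted limma p of 0.979. The spread in the treated group, 0.39 (SD), was wider than the 0.14 (SD) of the corn oil group, a difference in spread that was not tested.

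Apoe encodes the apolipoprotein by which remnant particles bind their receptors and which cells release together with cholesterol. Its level was 7.14, 6.43 and 6.95 with corn oil and 6.71, 6.95 and 6.49 with tricresyl phosphate. All 3 treated animals lay inside the range of the corn oil animals. The difference was -0.13 ± 0.22 (SE), with an interval from -0.65 to 0.39 and an adjusted limma p of 0.913.

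Apoc1 encodes a small apolipoprotein that hinders lipases and receptor uptake. It was the most variable member by far. Its level was -4.54, -0.20 and -3.96 in the 3 corn oil animals and -2.41, -2.39 and -0.67 in the 3 treated animals. Corn oil replicate 2 and tricresyl phosphate replicate 3 stood highest, with processed signals of 999 and 759, while corn oil replicate 1 had a processed signal of 40.3. These signals have the background already subtracted, and the probe was well above background on all 6 arrays. The means were -2.90 ± 2.36 (SD, n = 3) and -1.82 ± 0.997 (SD, n = 3). The difference of 1.07 ± 1.19 (SE) had an interval from -1.82 to 3.97 and an adjusted limma p of 0.863, so it was smaller than the spread between animals of 1 group.

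The same 2 animals were also the highest for several genes made mainly by hepatocytes. Ttr, which encodes the thyroxine carrier transthyretin, was at -3.53, 1.88 and -2.52 with corn oil and -0.62, -0.62 and 1.51 with tricresyl phosphate. Alb, the albumin gene, was at -2.47, 2.62 and -1.61 with corn oil and -0.11, -0.15 and 2.21 with tricresyl phosphate. In 8 of the 14 hepatocyte markers measured, corn oil replicate 2 and tricresyl phosphate replicate 3 were the highest pair, and 2 of them, Ttr and Serpina1, ordered all 6 animals as Apoc1 did. Tf, Fgb, Cyp2c11, Apob, Fga and Apoc3 did not have this pair highest, and Apoc3 was lowest in tricresyl phosphate replicate 3. The share of all genes with this pair highest was not counted. The summed level of the 14 markers was 19.2 to 33.9 in the corn oil group and 19.9 to 26.5 in the treated group, with the 75th percentile of the array counted as 1. Tf made up 25.0% to 45.4% of that sum. The other 13 summed to 11.8, 22.7 and 12.3 in corn oil replicates 1, 2 and 3 and to 14.7, 13.1 and 19.9 in the treated animals. All 14 were measured, 11 of them well above background on every array; Cyp3a2, Serpina1 and Fgg were not so on 1 or more corn oil arrays. Their part in the Apoc1 result was not tested. In tissue RNA, fewer cells of a type and less RNA per cell cannot be told apart. Without corn oil replicate 2 Apoc1 differed by 2.42 ± 0.60 (SE), at an unadjusted limma p of 0.00886 and an adjusted one of 0.922. Leaving out both animals, a choice made after seeing the data, gave 1.85 ± 0.23 (SE) with an adjusted limma p of 0.769 over 2 animals a group.

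**Figure D2:**
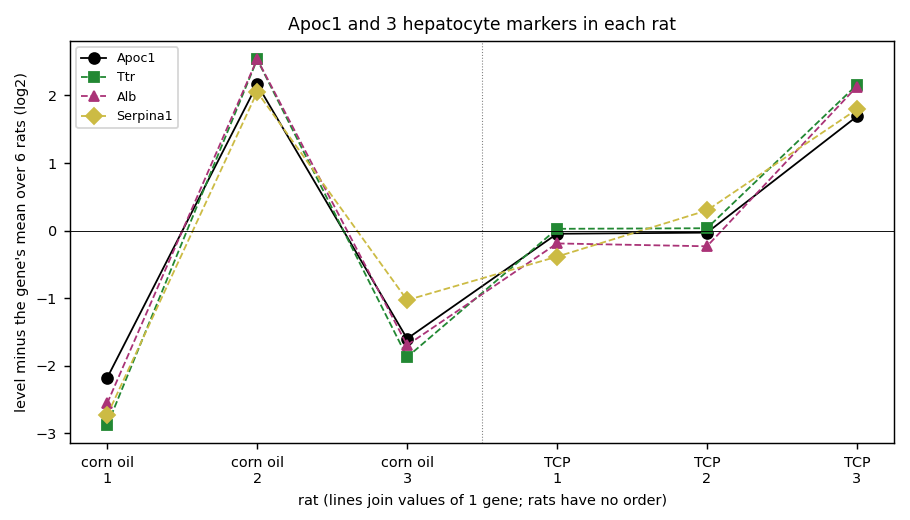
Level of Apoc1 and of the hepatocyte markers Ttr, Alb and Serpina1 in each of the 6 rats (log2, each gene minus its own mean over the 6 rats); lines only join the values of 1 gene. Corn oil replicate 2 and tricresyl phosphate replicate 3 are the highest for all 4 genes, and corn oil replicate 1 is the lowest. The markers drawn are among the 8 of 14 that had this highest pair.

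In the rat RefSeq table Apoc2, Apoc4, Apoc1 and Apoe are direct neighbours in this order. Apoc2, the activator of lipoprotein lipase, was at 1.06, 0.66 and 1.05 with corn oil and 0.028, 0.83 and 0.43 with tricresyl phosphate, a difference of -0.50 ± 0.23 (SE) with an adjusted limma p of 0.817. For Apoc4, whose product is another small apolipoprotein, the values were 1.35, 1.38 and 1.41 against 1.30, 1.19 and 1.21. All its treated animals lay below the corn oil animals, as was so in 7.88% of all genes. The difference of -0.15 ± 0.081 (SE) had an adjusted limma p of 0.817. The other 2 probes of Apoc4 went the opposite way, with differences of 0.32 and 1.40.

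Scarb1 encodes the scavenger receptor that takes cholesteryl ester from high-density lipoprotein and lets cholesterol pass both ways. The 3 probes of Scarb1 all gave a positive difference. On the probe with the highest mean, A_44_P422696, the level was -0.053, -0.50 and -0.29 with corn oil and -0.090, -0.24 and -0.27 with tricresyl phosphate. The treated animals lay inside the corn oil range, with a difference of 0.078 ± 0.14 (SE). Probe A_44_P379244 read -2.49, -2.54 and -2.27 with corn oil and -2.28, -2.22 and -2.09 with tricresyl phosphate. Here the lowest treated animal lay just below the highest corn oil animal, so the groups overlapped narrowly. The difference of 0.24 ± 0.11 (SE) had an interval from -0.030 to 0.51, an unadjusted limma p of 0.0728 and an adjusted limma p of 0.817. Probe A_64_P138776 gave the smallest difference of the 3, 0.060 ± 0.10 (SE). Pdzk1, whose product holds this receptor at the cell surface in liver and which proximal tubules express, differed by -0.053 ± 0.099 (SE), a sign that turned under quantile, cyclic loess and normexp normalization.

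Mylip encodes a ubiquitin ligase that sends lipoprotein receptors to degradation. On its brighter probe, A_44_P612186, the level was -0.39, -0.47 and -0.63 with corn oil and -0.57, -0.47 and -0.95 with tricresyl phosphate. Replicate 3 was the lowest of each group, and the groups overlapped. The difference was -0.17 ± 0.15 (SE), with an interval from -0.53 to 0.20 and an adjusted limma p of 0.841. The other probe read between -5.25 and -4.44 over the 6 animals, with processed signals of 30.1 to 55.6, and differed by 0.024 ± 0.24 (SE). Vldlr, which encodes a receptor that Mylip acts on, differed by 0.086 ± 0.12 (SE), and by -0.032 without corn oil replicate 2.

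Pltp, the plasma phospholipid transfer protein, which moves phospholipid between particles and enlarges high-density lipoprotein, was at 0.57, 0.91 and 1.26 with corn oil. With tricresyl phosphate the 3 values lay close together, at 1.20, 1.22 and 1.10. Corn oil replicate 3 stood above all treated animals, and the other 2 corn oil animals below them. The difference was 0.26 ± 0.18 (SE), with an interval from -0.18 to 0.70 and an adjusted limma p of 0.817. It depended on corn oil animals, since it was 0.089 without replicate 1 and 0.44 without replicate 3. Because replicate 1 is alone on its slide, the value of 0.089 is also that within the slide the other 5 share.

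Lpl encodes lipoprotein lipase, which frees fatty acids from triglyceride-rich particles at the capillary wall. Probe A_44_P1016480 read -0.089, -0.39 and 0.069 with corn oil and -0.28, 0.097 and -0.16 with tricresyl phosphate, a difference of 0.025 ± 0.16 (SE). On probe A_44_P151230 the values were -2.00, -2.31 and -1.67 against -2.22, -1.63 and -1.71, a difference of 0.14 ± 0.22 (SE). Both probes placed corn oil replicate 2 lowest and tricresyl phosphate replicate 2 highest of all animals, and their adjusted limma p-values were 0.979 and 0.907. Adipocytes also make much Lpl. Of the 12 adipocyte markers 7 were measured, 4 higher and 3 lower. Their summed level was 213 to 249 in the corn oil group and 196 to 234 in the treated group, but 98.9% to 99.1% of it was Pck1, a gluconeogenic gene that tubules express. The other 6 summed to 2.02 to 2.46 with corn oil and 2.21 to 2.41 with tricresyl phosphate. Fabp4, a fatty acid binding protein gene of adipocytes and capillary endothelium, had the lowest p of the list. It was at -4.38, -4.34 and -5.46 with corn oil and -3.43, -2.14 and -3.41 with tricresyl phosphate, dim but well above background on every array. All treated animals lay above all corn oil animals, as was so in 3.85% of all genes. Fabp4 differed by 1.73 ± 0.46 (SE), at an unadjusted limma p of 0.00873 and an adjusted one of 0.817. An unadjusted limma p under 0.05 with a higher level was found in 1.66% of all genes. Lep, which encodes leptin, was well above background on 0 of the 6 arrays. Adipoq, the adiponectin gene, differed by 0.20 ± 0.22 (SE), and the lipid droplet genes Cidec and Cidea by -0.51 ± 0.33 (SE) and -0.19 ± 0.14 (SE). Their part in the Lpl values was not tested.

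Lpcat3 encodes the enzyme that puts polyunsaturated fatty acids into membrane phospholipids. Its level was 2.88, 2.91 and 3.12 with corn oil and 2.93, 3.05 and 2.92 with tricresyl phosphate. All 3 treated animals lay inside the corn oil range. The difference of -0.0045 ± 0.10 (SE) had an interval from -0.25 to 0.24 and an adjusted limma p of 0.995, and its sign turned under 4 of the other scalings.

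Cyp27a1, the mitochondrial enzyme that oxidises the cholesterol side chain and so makes ligands of the liver X receptors, had the lowest unadjusted limma p of the 10 genes, 0.153, when each gene stands by its probe with the highest mean; the Scarb1 probe A_44_P379244 was lower, at 0.0728. The corn oil values were -0.95, -1.05 and -0.84 and the treated values -0.89, -0.71 and -0.75. The highest 2 animals were treated and the lowest 2 had corn oil, with 1 pair out of order between them. Corn oil animals averaged -0.95 ± 0.10 (SD, n = 3) and treated animals -0.79 ± 0.093 (SD, n = 3). The difference of 0.16 ± 0.099 (SE), 1.12-fold, had an interval from -0.079 to 0.40 and an adjusted limma p of 0.817. It ranged from 0.11 to 0.21 when each array was left out. The genes whose pattern over the 6 arrays was most like it, among 12423 named genes compared by the root mean square difference of mean-centred levels, were Kdelr1 (0.020), Slc35f5 (0.029) and Zbtb37 (0.030), where Cyp27a1 itself had an SD of 0.12 over the arrays.

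**Figure D3:**
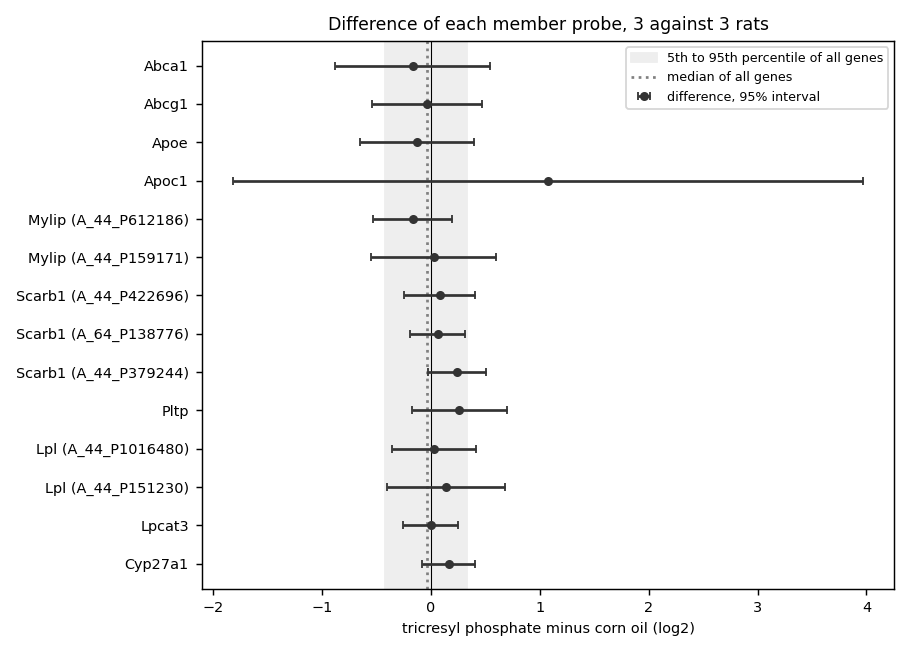
Difference of each member probe, tricresyl phosphate minus corn oil (log2), with its 95% interval from the limma fit on 3 against 3 rats; the grey band holds the 5th to 95th percentile of the differences of all 31637 genes and the dotted line their median. Every interval includes 0, and only the point for Apoc1 lies outside the band.

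Which animals were in the comparison mattered more for some members than for others. Abca1 ranged from -0.41 without tricresyl phosphate replicate 2 to 0.080 without tricresyl phosphate replicate 3. Abcg1 ranged from -0.26 to 0.11 over the same omissions, and Apoe from -0.33 without corn oil replicate 2 to 0.023 without corn oil replicate 1. Within slide 2, which is the comparison without corn oil replicate 1, the differences were -0.38 for Abca1, 0.047 for Abcg1, 0.023 for Apoe, 0.26 for Apoc1, -0.11 for Mylip, 0.19 for Scarb1, 0.049 for Lpl (probe A_44_P1016480), -0.050 for Lpcat3 and 0.16 for Cyp27a1. Abca1, Abcg1 and Apoe therefore had no settled direction, while Cyp27a1, Pltp, Apoc1, the Mylip probe A_44_P612186 and the Scarb1 probe A_44_P379244 kept theirs in all 21 alternatives, or, for that Scarb1 probe, in the 19 that gave it a value. Several alternatives could not turn a direction, since the filters, the variance model and the replicate block leave a probe's difference as it was. The slide block repeats the fit without corn oil replicate 1. In 2 probes an omission of 1 corn oil animal brought an unadjusted limma p under 0.05 beside that of Apoc1: Pltp, at 0.0230, and the Scarb1 probe A_44_P379244, at 0.0270, both without corn oil replicate 3, with adjusted limma p of 0.681 for each. Among the 43099 kept probes 2941 were under 0.05 in that fit, the most of any such omission. There were 2104 without corn oil replicate 2, the omission for Apoc1, and 2327 with all 6 arrays.

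**Figure D4:**
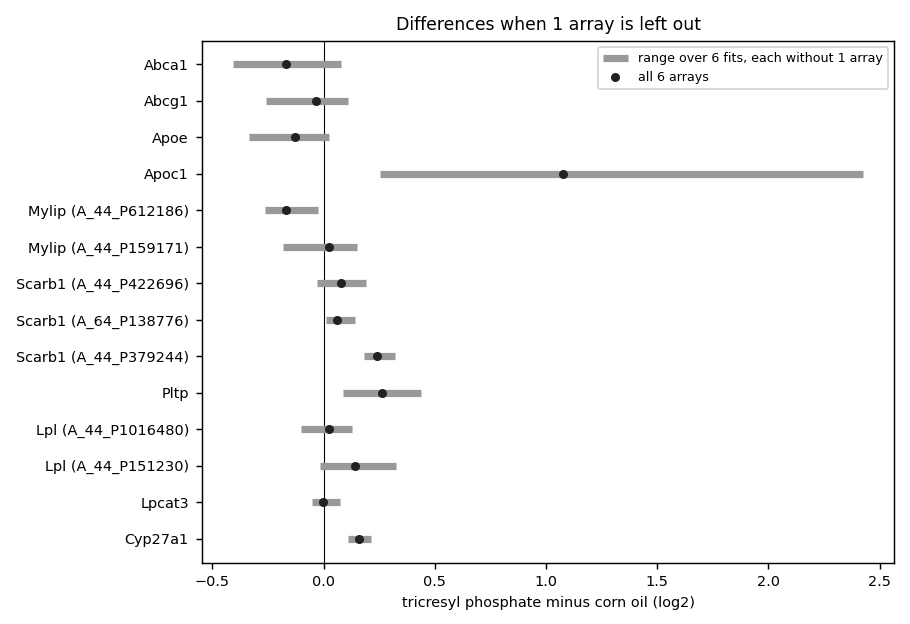
Difference of each member probe (log2, tricresyl phosphate minus corn oil) with all 6 arrays (points) and its range over 6 fits that each leave out 1 array (bars). The bars of Abca1, Abcg1, Apoe, Lpcat3, both Lpl probes, the Mylip probe A_44_P159171 and the Scarb1 probe A_44_P422696 cross 0, and that of Apoc1 reaches from 0.26 to 2.42.

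Within the treated group 6 members shared an order of animals. Abca1, Abcg1, Apoe, Mylip, Pltp and Lpcat3 were all highest in tricresyl phosphate replicate 2 and lowest in tricresyl phosphate replicate 3. For Mylip this rests on probe A_44_P612186, since probe A_44_P159171 was highest in replicate 3 and lowest in replicate 2. Counted on 1 probe a gene, the one with the highest mean, the order held in 6 of the 10 member genes and in 18.8% of the 31613 genes with a value on every array, and replicate 2 was the highest of its group in 8 of 10 members against 30.1%. The corn oil animals showed no common order for these 6 genes, since Abcg1, Apoe and Mylip were highest in replicate 1 and Abca1, Pltp and Lpcat3 lowest in it. The pattern was noticed after the values were seen and was not tested. Macrophages, which carry much of this programme in other tissues, had 11 of 12 markers measured, with a summed level of 97.4, 95.8 and 90.2 in tricresyl phosphate replicates 1, 2 and 3 and 88.2 to 132.4 in the corn oil group. Lyz2, the lysozyme gene, made up 49.0% to 62.2% of that sum. The other 10 summed to 38.9, 38.3 and 46.0 in the treated animals and to 42.85 to 49.99 in the corn oil animals, and 7 of the 11 were highest of the treated group in replicate 3. With tricresyl phosphate 2 of the 11 were higher and 9 lower. C1qa, a complement gene of macrophages, was lower without overlap, as was so in 7.88% of all genes. It differed by -0.28 ± 0.098 (SE) at an adjusted limma p of 0.817. The part of the macrophage markers in this order was not tested. Cd163, a marker of resident macrophages, reached no level well above background.

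Of 11 genes for liver X receptors, their partners and cofactors 9 were measured, with 6 higher, 3 lower, 0 past the adjusted threshold and a median difference of 0.030. Nr1h2, liver X receptor beta, averaged 3.06 ± 0.087 (SD, n = 3) in corn oil animals and 3.14 ± 0.10 (SD, n = 3) in treated animals, a difference of 0.079 ± 0.097 (SE). Nr1h3, liver X receptor alpha, named here for its role after its value was seen, differed by -0.040 ± 0.090 (SE), and this sign turned under quantile, cyclic loess and normexp normalization.

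Of 16 other liver X receptor targets 9 were measured, with 2 higher, 7 lower, 0 past the threshold and a median of -0.037, which is close to the median of all genes. Fasn, the fatty acid synthase gene, differed by -0.11 ± 0.10 (SE). The stearoyl-CoA desaturase gene Scd and the sterol exporter gene Abcg8 were well above background on 0 of 6 arrays, and Abcg5, the partner of Abcg8, on 1.

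Of 16 other apolipoprotein genes 13 were measured, with 4 higher, 9 lower and 0 past the adjusted threshold. At an unadjusted limma p under 0.05 there was 1, Apom, where the share over all genes was 5.52%, made up of 1.66% higher and 3.86% lower. Apom, whose product carries sphingosine 1-phosphate on high-density lipoprotein and is made in liver and kidney, was at 6.89, 6.76 and 6.94 with corn oil and 6.38, 6.61 and 6.67 with tricresyl phosphate. All treated animals lay below all corn oil animals, as was so in 7.88% of all genes, against 3.85% with all treated animals above and 11.7% in either direction. The difference was -0.31 ± 0.11 (SE), at an unadjusted limma p of 0.0315 and an adjusted limma p of 0.817. Apoa4, an apolipoprotein gene of the intestine, differed by 0.89 ± 0.50 (SE). It read 0.40 in tricresyl phosphate replicate 1 and between -2.12 and -1.21 in the other 5 animals.

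Among 14 lipase and remodelling genes 13 were measured, 6 higher and 7 lower, with 0 past the adjusted threshold. Lcat, which esterifies cholesterol on high-density lipoprotein, was at -1.78, -1.80 and -1.79 with corn oil and -1.37, -1.49 and -1.58 with tricresyl phosphate. The treated animals were all above the corn oil animals, as was so in 3.85% of all genes, and the corn oil values were nearly equal. The groups differed by 0.31 ± 0.089 (SE), with an unadjusted limma p of 0.0123 and an adjusted limma p of 0.817. At an unadjusted limma p under 0.05, 1.66% of all genes were higher. Lmf2, a relative of the lipase maturation factor, differed by 0.19 ± 0.0996 (SE) and by 0.25 on its other probe. Pla2g7, a phospholipase bound to lipoproteins, differed by -0.51 ± 0.24 (SE).

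Of 21 genes for lipoprotein receptors and their regulators 18 were measured, 10 higher and 8 lower, with 0 past the adjusted or unadjusted threshold. Lrp2, which encodes megalin, differed by -0.13 ± 0.092 (SE). Dab2, the adaptor that takes megalin into endocytic vesicles, was at 5.03, 4.93 and 4.70 with corn oil and 5.04, 5.16 and 5.47 with tricresyl phosphate. All its treated animals lay above the corn oil animals, only just, as was so in 3.85% of all genes. The difference of 0.34 ± 0.15 (SE) had an adjusted limma p of 0.817, with 0.397 on its other probe.

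Sterol transport and cholesteryl ester genes gave 12 higher and 8 lower of 20 measured, 0 past either threshold, with a median of 0.028 that was -0.021 without corn oil replicate 2. Soat1, the enzyme that stores cholesterol as ester, differed by 0.27 ± 0.16 (SE), and Abca2, an intracellular lipid transporter, by -0.14 ± 0.091 (SE).

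Genes for oxysterol and bile acid synthesis other than Cyp27a1 had a median of -0.093 over 15 of 21 measured, with 6 higher and 9 lower and 0 past the adjusted threshold. At an unadjusted limma p under 0.05 there were 2, both lower, where the share over all genes was 3.86% lower. Hsd17b4, a peroxisomal enzyme that helps shorten the sterol side chain, was at 6.44, 6.23 and 6.22 with corn oil and 5.99, 5.78 and 6.02 with tricresyl phosphate, a difference of -0.37 ± 0.11 (SE) with -0.25 on its other probe. Acox2, the branched-chain acyl-CoA oxidase, was at -3.61, -3.36 and -2.29 with corn oil and -3.94, -4.20 and -3.80 with tricresyl phosphate, a difference of -0.89 ± 0.35 (SE) that was -0.49 without corn oil replicate 3 and -1.15 without corn oil replicate 1. In both genes all treated animals lay below all corn oil animals, as was so in 7.88% of all genes, and the adjusted limma p was 0.817 for each. Amacr, which also acts on the side chain in peroxisomes, differed by -0.23 ± 0.15 (SE), with overlap. Sult2b1, next by p, was higher by 0.17 ± 0.14 (SE), with overlap.

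Phospholipid acyltransferases other than Lpcat3 were measured in 13 of 14 cases, with 5 higher and 8 lower and 0 past the adjusted threshold. Mboat1, which belongs to the same enzyme family as Lpcat3, was at -0.99, -1.08 and -0.95 with corn oil and -0.74, -0.48 and -0.62 with tricresyl phosphate. The treated animals were all higher, with a difference of 0.39 ± 0.10 (SE), 0.54 on its other probe, an unadjusted limma p of 0.00728 and an adjusted limma p of 0.817. Tmem68, a transmembrane acyltransferase gene, differed by 0.41 ± 0.16 (SE) with an unadjusted limma p of 0.0383, also without overlap. These 2 genes were higher at an unadjusted limma p under 0.05, as were 1.66% of all genes. All treated animals lay above all corn oil animals in 3.85% of all genes. Next by p were Lpcat4 and Agpat4, both lower, by -0.27 ± 0.16 (SE) and -0.20 ± 0.12 (SE). Mboat2 and Mboat7, of the same family as Mboat1, differed by -0.66 ± 0.56 (SE) and -0.098 ± 0.096 (SE), with overlap.

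**Figure D5:**
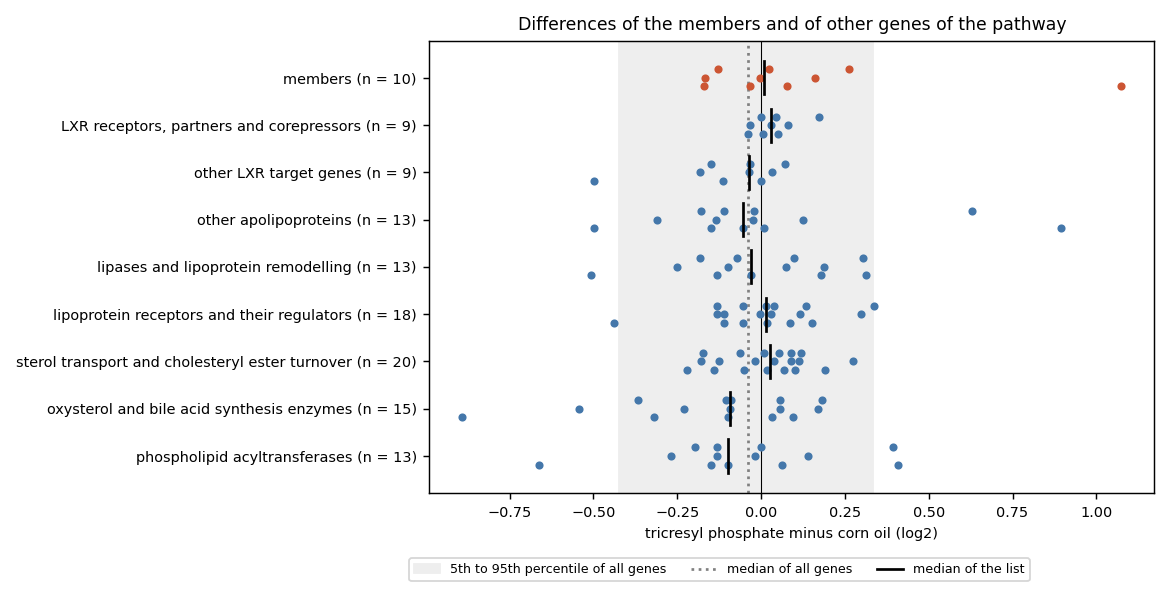
Differences (log2, tricresyl phosphate minus corn oil) of the 10 members and of the measured genes of 8 related lists, 1 point a gene; short black lines are list medians, the grey band holds the 5th to 95th percentile of all 31637 genes and the dotted line their median. List medians lie between -0.098 and 0.030.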

How the data were processed

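The authors read 1-colour (Cy3) arrays with Agilent's Feature Extraction software; the submitters' processing notes give version 10.7. The intensity they deposited is a linear processed signal, with background subtraction and spatial detrending, per the file headers. The authors' value table, used as an alternative, equals this intensity divided by 1 number per array over the brighter probes. The number of arrays limits the precision.

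Accessions were matched, without version, to RefSeq genes of GRCr8, which named 28206 probes; the headers give rn4, so promoter coordinates are RefSeq's. Signals were log2 transformed and scaled to each array's 75th percentile, 77 outlier spots were set missing, and probes well above background on at least 3 of 6 arrays were kept. Groups were compared over all kept probes with limma 3.58.1 in R 4.3.3 (lmFit, eBayes, two-sided, Benjamini-Hochberg adjustment, threshold 0.05). The kept probe with the highest mean stood for a gene. On simulated 3 against 3 arrays of 43061 probes, 40 of 100 changes of 1 and 82 of 100 changes of 2 (log2) were called, with 8 false calls. The simulated noise was normal and independent between probes, so these rates need not hold for the real arrays.

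All members are named, with up to 4 genes of each related list by lowest p. Nr1h3, Vldlr, Pdzk1, Mboat2 and Mboat7 were added for their roles after their values were seen. Some results are not reported here. The members and lists were chosen with earlier results of these data known. Alternatives were other scalings, normexp background correction with an offset of 50 on the median spot signal (the files hold no mean spot signal), other filters, variance models and probe rules, slide and replicate blocks, and leaving out arrays.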

Additional observations from a re-analysis of the deposited data

How the results depend on the processing

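No member probe passed the adjusted limma threshold in any of 21 alternatives, where the lowest adjusted p was 0.681. Over all probes, normexp background correction and the trended robust variance model gave 2 probes past the threshold each, and leaving out 1 array gave 0 to 1. The values below are differences, or list medians of differences, and the causes of their shifts were not tested. With a slide block (the lone array on slide 1 then carries no information) Apoe was at 0.023, Abcg1 at 0.047, other liver X receptor targets at a median of -0.14 and other apolipoproteins at -0.16. Under quantile normalization Apoe was at 0.0085, Lpcat3 at 0.038, Nr1h3 at 0.040, Pdzk1 at 0.062 and the receptor list at 0.063. Under cyclic loess Lpcat3 was at 0.043, Nr1h3 at 0.026, Pdzk1 at 0.058 and the receptor list at 0.060. With the percentile over probes detected on all arrays Lpcat3 was at 0.018. Under normexp Lpcat3 was at 0.056, Nr1h3 at 0.0058, Pdzk1 at 0.085, the Mylip probe A_44_P159171 at -0.033, the oxysterol list at 0.016 and the acyltransferase list at -0.044. With the mean over probes Apoc4 was at 0.52, Gramd1c, a sterol transfer gene, at 0.10 and the lipase list at 0.043. Leaving out corn oil 2 and tricresyl phosphate 3 together, chosen after seeing the data, Abca1 was at 0.17, Abcg1 at 0.080, the Mylip probe A_44_P159171 at -0.37, the Scarb1 probe A_64_P138776 at -0.0046, Lpl at -0.080 and -0.091, Vldlr at -0.041, the liver X receptor list at 0.080, the lipase list at 0.071 and the acyltransferase list at -0.043.

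Leaving out 1 array moved single differences to between -0.41 and 0.080 (Abca1), -0.26 and 0.11 (Abcg1), -0.33 and 0.023 (Apoe), -0.18 and 0.15 (Mylip probe A_44_P159171), -0.031 and 0.19 (Scarb1 probe A_44_P422696), -0.10 and 0.13 (Lpl probe A_44_P1016480), -0.018 and 0.32 (Lpl probe A_44_P151230), -0.050 and 0.072 (Lpcat3) and -0.032 and 0.15 (Vldlr). List medians lay between -0.063 and 0.095 for the members, 0.015 and 0.069 for the liver X receptor list, -0.14 and -0.021 for its other targets, -0.17 and -0.0090 for other apolipoproteins, -0.067 and 0.17 for lipases, -0.018 and 0.061 for receptors, -0.021 and 0.054 for sterol transport, -0.14 and -0.037 for oxysterol enzymes and -0.13 and -0.051 for acyltransferases. Same-numbered animals were not paired in the main fit. Their deviations correlated at 0.10, -0.060 and -0.017, and those of animals with unlike numbers at -0.10 to 0.12. With 3 animals a group these values cannot decide whether animals were paired. With the replicate block 0 probes passed and 2654 had an unadjusted limma p under 0.05, against 2327.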
